A study of Mus musculus with 6 samples.

Results

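The endothelial marker genes described here are Pecam1, Kdr, Flt1, Emcn, Plvap, Ehd3, Cdh5, Tek, Eng and Egfl7, 10 genes out of 18193 that carry a probe set of their own on the array. Members were selected by gene symbol alone: every probe set annotated with a single symbol from this list was taken, which gave 19 probe sets out of 45037, and none was dropped for its level. The genes have between 1 and 4 probe sets each. The arrays were hybridised with RNA of renal proximal tubules that had been dissected in the cold from the left kidney of mice, perfused under halothane anaesthesia in both groups. One group lacked Clcn5, the gene of an endosomal exchanger of chloride and protons in the proximal tubule, and the other was wild type. There were 3 knockout and 3 wild type arrays, and the strain, age and sex of the mice, and the part of Clcn5 that was disrupted, are not given in the sources used here. From each kidney 80 to 100 pieces of tubule, each 2 mm long, were collected, and an array carried the pooled RNA of 3 to 4 mice according to the series description, or of 7 mice according to the array records, where each array is entered as a biological replicate. The p-values measure the spread between these pools. As a check of the labels, Clcn5 probe set 1429400_at read 107, 111 and 127 in knockout and 821, 861 and 834 in wild type, and its other 3 probe sets were also lower on every knockout array.

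Endothelial cells line the vessels of the kidney, from the fenestrated capillaries of the glomerulus to the peritubular capillaries that wrap the proximal tubule. They are held together by junction proteins such as VE-cadherin and depend on vascular endothelial growth factor (VEGF) and angiopoietin-1 made by neighbouring cells. The genes serve here as a reference for vessel carried over with the dissected tubules. In such bulk RNA fewer cells of a type and less RNA per cell cannot be told apart.

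Transcription factors of the ETS family, among them Erg and Fli1, and of the SOX family, among them Sox17 and Sox18, are known to drive endothelial genes. The start regions of 3 markers are printed to show the letters at which such factors are known to bind, from 250 bases before to 50 after the annotated start (RefSeq, GRCm38.p6, 5′ to 3′ on the gene's strand). Capitals mark the ETS letters AGGAAG and the SOX letters AACAAT on either strand, which did not overlap. Flt1 is shown for its ETS letters, Tek for its SOX letters and Emcn for both. The regions are chr5:147725962-147726261 on the minus strand for Flt1, chr3:137340828-137341127 on the plus strand for Emcn and chr4:94739039-94739338 on the plus strand for Tek.
Flt1: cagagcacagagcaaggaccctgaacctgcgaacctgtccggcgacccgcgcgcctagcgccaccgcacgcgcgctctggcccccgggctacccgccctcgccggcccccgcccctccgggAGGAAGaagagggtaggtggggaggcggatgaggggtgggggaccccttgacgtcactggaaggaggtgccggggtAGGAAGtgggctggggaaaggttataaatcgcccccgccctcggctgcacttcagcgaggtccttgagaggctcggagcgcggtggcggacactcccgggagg
Emcn: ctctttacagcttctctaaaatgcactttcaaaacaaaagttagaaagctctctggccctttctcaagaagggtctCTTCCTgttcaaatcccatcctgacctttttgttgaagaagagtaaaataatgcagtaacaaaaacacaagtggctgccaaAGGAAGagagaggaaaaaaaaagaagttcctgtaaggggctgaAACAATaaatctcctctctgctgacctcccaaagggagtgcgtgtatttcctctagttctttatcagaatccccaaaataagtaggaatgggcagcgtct
Tek: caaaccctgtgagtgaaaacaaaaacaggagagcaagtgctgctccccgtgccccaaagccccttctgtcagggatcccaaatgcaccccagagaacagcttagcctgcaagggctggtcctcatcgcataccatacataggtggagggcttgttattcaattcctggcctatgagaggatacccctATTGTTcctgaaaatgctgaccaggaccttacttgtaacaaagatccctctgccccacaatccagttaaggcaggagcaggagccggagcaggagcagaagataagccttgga
The table of start regions held 9 windows of 7 of the marker genes. The ETS letters were present in 6 of these 9 windows, belonging to Egfl7, Ehd3, Emcn, Eng and Flt1, and in 35.4% of all 32851 windows. The SOX letters were present in 2 of the 9, in Emcn and Tek, and in 10.7% of all windows. A match of letters is not evidence of binding.

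No endothelial marker passed the test between knockout and wild type tubules, and most intervals lay inside a 1.5-fold change. The log2 changes of the 19 probe sets, knockout minus wild type, ran from −0.20 to 0.42 with a median of −0.05, next to a median of 0.01 over all probe sets. Of the 19, 8 were above 0 and 11 below. By limma with Benjamini-Hochberg adjustment over the whole table, 0 of 19 passed an adjusted p of 0.05, where 1.89% of all probe sets did (0.913% higher and 0.979% lower in knockout), and 0 of 19 had an unadjusted p under 0.05, where 11.8% of all did. Their adjusted p-values lay between 0.499 and 0.984. The 95% intervals say how large a difference these arrays could have missed. All 19 intervals held 0, and 15 of them lay wholly inside a 1.5-fold change in either direction, which is 0.585 on the log2 scale. For each of the 10 genes the probe set with the highest mean signal had such an interval. An interval inside 1.5-fold does not show a gene to be unchanged. That of Kdr reached a 1.35-fold fall, and Umod, described below with the distal genes, passed the test at 1.33-fold. The groups failed to overlap for 1 of the 19 probe sets, lower in knockout, against 17.6% of all probe sets in either direction and 8.6% lower.

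**Figure D1:**
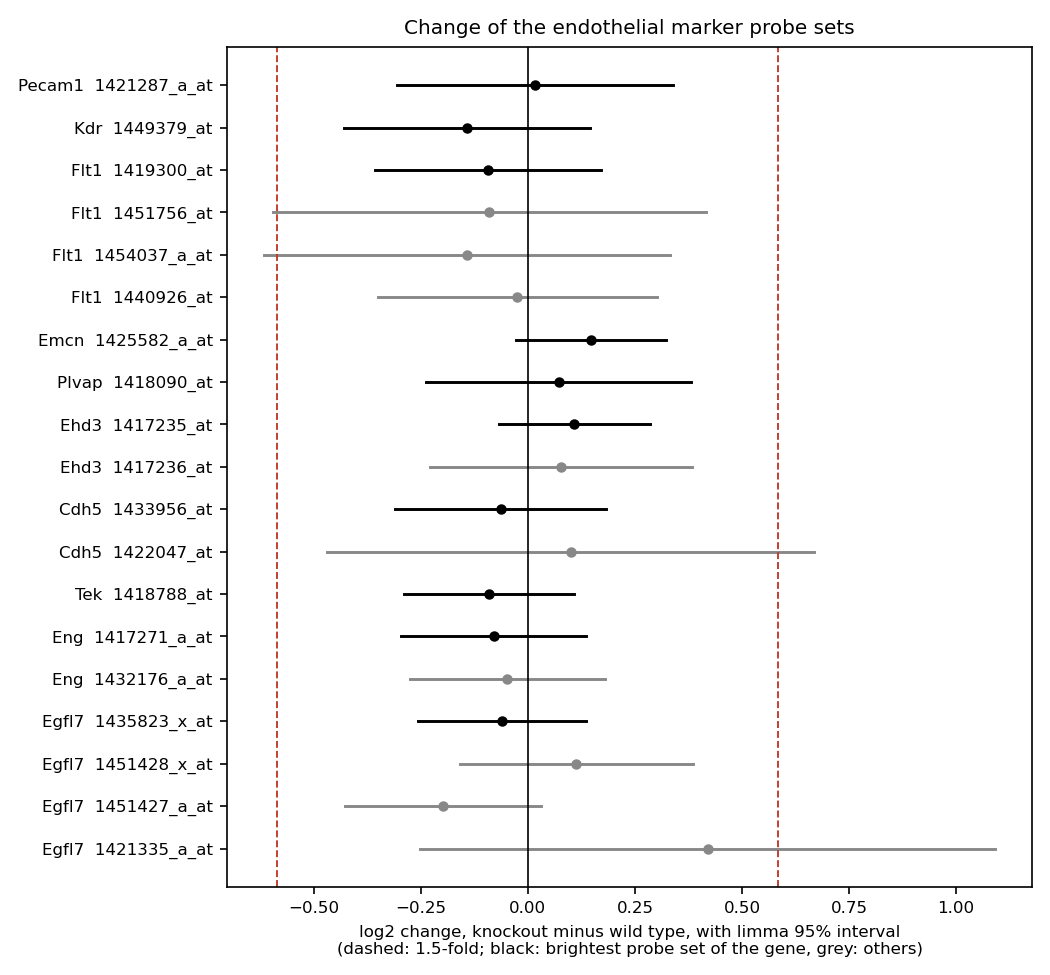
Log2 change of each of the 19 endothelial marker probe sets, knockout minus wild type, with its limma 95% interval (3 arrays per group). Every interval crosses 0, and 4 grey ones, 2 of Flt1, 1 of Cdh5 and 1 of Egfl7, reach past the dashed 1.5-fold lines.

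Both junction genes had overlapping groups. Pecam1 encodes PECAM-1, an adhesion protein between endothelial cells that platelets and leukocytes carry as well. Its signals were 106, 108 and 129 on the knockout arrays and 106, 132 and 103 on the wild type arrays. Knockout array 3 and wild type array 2 stood above the other 4. The log2 change was 0.02 (95% interval −0.31 to 0.34, limma adjusted p = 0.984). Cdh5 encodes VE-cadherin, the cadherin that is largely restricted to endothelium. On probe set 1433956_at it read 114, 116 and 113 in knockout and 123, 112 and 124 in wild type. The knockout values lay within the wild type range, and the log2 change was −0.06 (95% interval −0.31 to 0.18). The other Cdh5 probe set, 1422047_at, was the only member too dim for the filter on mean signal used as an alternative, at 33.3 to 50.1 in knockout and 33.9 to 40.8 in wild type. Its change of 0.10 had an interval of −0.47 to 0.67, which leaves room for a 1.59-fold rise.

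Receptors of vascular growth factors had changes slightly below 0, none past the test. Kdr encodes the main signalling receptor for VEGF. It read 265, 215 and 198 in knockout and 220, 265 and 260 in wild type. Knockout array 1 was level with the highest wild type array while the other knockout arrays were below the wild type range. The log2 change of Kdr was −0.14 (95% interval −0.43 to 0.14, limma adjusted p = 0.738). By fluidics station, the instrument that washed the array, it was −0.0032 within station 1 and −0.42 on station 2, which held 1 array of each group. Flt1 encodes a VEGF receptor that binds the factor tightly and is also made in a soluble form that traps it. Its brightest probe set, 1419300_at, read 187, 173 and 153 in knockout and 169, 174 and 204 in wild type, with overlapping groups. The change was −0.09 (95% interval −0.36 to 0.17), and the other Flt1 probe sets gave −0.09, −0.14 and −0.02. All 4 Flt1 values were thus below 0. The intervals of 1451756_at and 1454037_a_at were the wider ones, −0.59 to 0.41 and −0.62 to 0.33. In each of these a single knockout array stood low: knockout array 2 at 65.1 on the first and knockout array 1 at 54.3 on the second. These 2 probe sets were at −0.30 within station 1 and at 0.34 and 0.18 on station 2, so the shared direction did not hold on each station.

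Tek encodes Tie2, the receptor for angiopoietins. Its signals of 214, 193 and 202 in knockout and 226, 214 and 208 in wild type met at their edges. The change was −0.09 (95% interval −0.29 to 0.11, limma adjusted p = 0.765), the same sign as on each fluidics station alone (−0.09 on both). Eng encodes endoglin, a co-receptor for ligands of the TGF-β and BMP families. On 1417271_a_at it read 377, 399 and 465 in knockout and 445, 403 and 460 in wild type, and knockout array 3 was the highest of the 6. The change was −0.08 (95% interval −0.30 to 0.14), and the second Eng probe set gave −0.05 (95% interval −0.28 to 0.18). The sign of Eng was not steady: within station 1 the first probe set was at −0.22, and on station 2, with 1 array of each group, at 0.21.

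**Figure D2:**
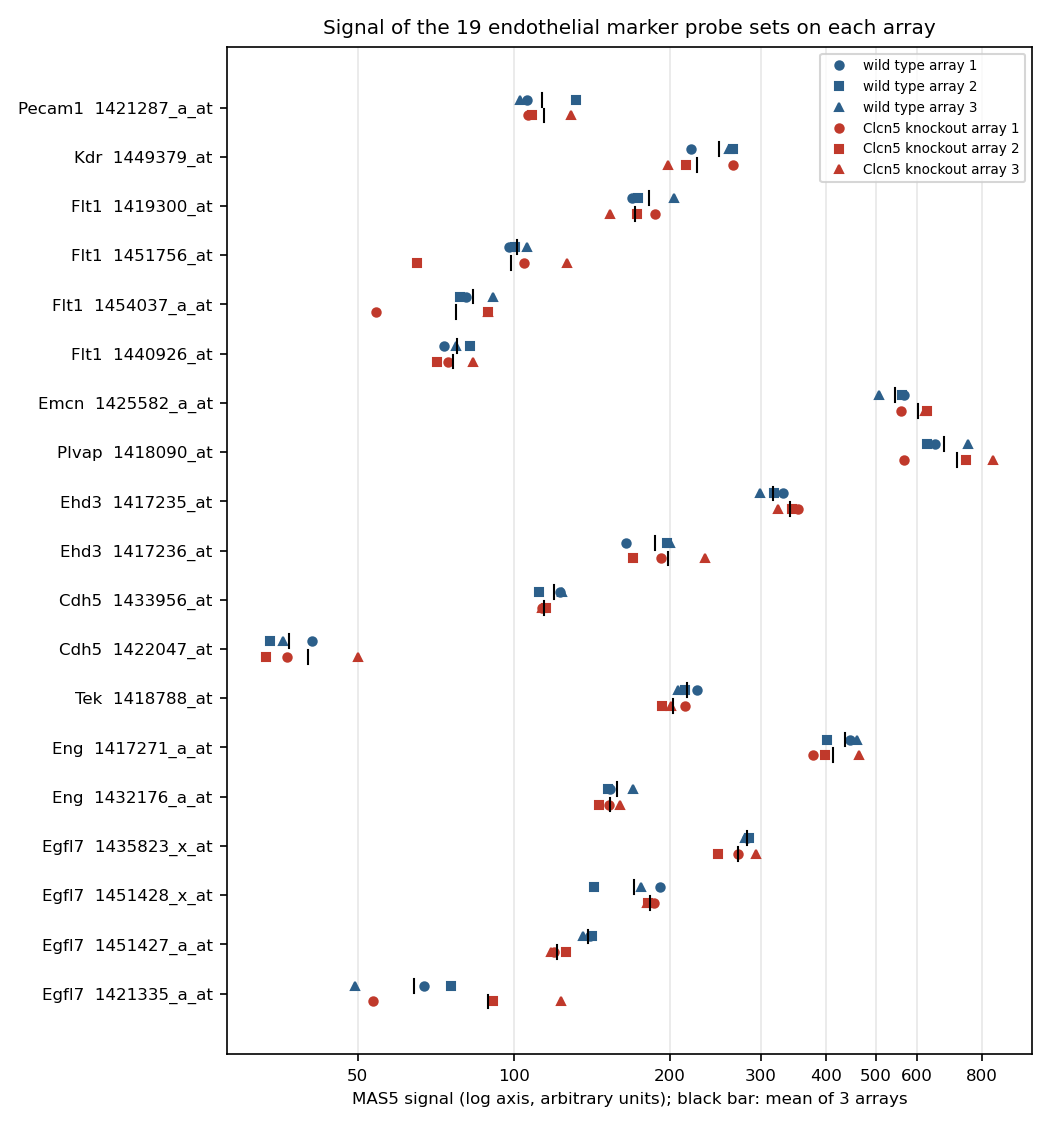
MAS5 signal of each endothelial marker probe set on each of the 6 arrays (log axis, arbitrary units), with the mean of 3 arrays as a black bar. The red knockout and blue wild type points intermix in every line except Egfl7 1451427_a_at, where all knockout values are lower.

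The genes of the capillary surface and of fenestrae had changes slightly above 0, none past the test. Emcn encodes endomucin, a sialomucin on capillary and venous endothelium. It read 559, 627 and 622 in knockout and 565, 560 and 506 in wild type. Knockout arrays 2 and 3 were above all wild type arrays and knockout array 1 was below wild type arrays 1 and 2. The log2 change was 0.15 (SE 0.08, 95% interval −0.03 to 0.32, limma adjusted p = 0.515), with 0.15 on each fluidics station. Plvap encodes the protein of the diaphragms that span fenestrae and caveolae, and in the kidney it marks peritubular capillaries. Its signals of 567, 745 and 841 in knockout spread around those of 650, 626 and 752 in wild type. The lowest and the highest of the 6 values were both knockout arrays. The change of 0.07 had an interval of −0.24 to 0.38. The sign of Plvap was not steady, at −0.11 within station 1, 0.43 on station 2 and −0.05 without knockout array 3.

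Ehd3 encodes an ATPase of endocytic recycling that in the kidney marks glomerular endothelium. Probe set 1417235_at read 354, 344 and 324 in knockout and 331, 318 and 299 in wild type. Knockout arrays 1 and 2 were above every wild type array and knockout array 3 was not. The log2 change was 0.11 (95% interval −0.07 to 0.29, limma adjusted p = 0.657), and 0.08 on the other probe set (95% interval −0.23 to 0.38).

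Egfl7 encodes a secreted protein of the endothelial matrix, and its gene holds the endothelial microRNA miR-126. The mature sequence, which the array does not measure, is given with its seed, bases 2 to 8, in capitals (RefSeq, GRCm38.p6, chr2:26591402-26591423, plus strand), since the Egfl7 transcript is its host.
mmu-miR-126a-3p: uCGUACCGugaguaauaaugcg
The 4 Egfl7 probe sets did not share a direction. The brightest, 1435823_x_at, read 271, 248 and 294 in knockout and 282, 284 and 279 in wild type, so that the wild type values lay inside the knockout range. Its change was −0.06 (95% interval −0.26 to 0.14). Probe set 1451427_a_at read 120, 126 and 118 in knockout and 140, 141 and 136 in wild type, the only member with separate groups. That change was −0.20 (95% interval −0.43 to 0.03, limma adjusted p = 0.499), a 1.15-fold difference. Probe set 1451428_x_at gave 0.11 (95% interval −0.16 to 0.38). Probe set 1421335_a_at gave 0.42 with the widest interval of all members, −0.25 to 1.09. Of its knockout values of 53.5, 91.1 and 123, the first lay inside the wild type range of 49.5 to 75.6 and the others above it. Which of the probe sets reads the gene best is not known from these files.

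Summed over the 10 genes, each by its brightest probe set, the endothelial signal was 3015, 3167 and 3341 on the knockout arrays and 3118, 3088 and 3195 on the wild type arrays. The mean was 3174 ± 163 (SD, n = 3) in knockout and 3134 ± 55.1 (SD, n = 3) in wild type, a ratio of 1.01, and the groups overlapped. Leaving out Emcn and Plvap, whose probe sets are bright and weigh most in a sum, gave 0.969, a setting added after the data were seen. With every gene weighted equally, the mean log2 deviation of an array from the genes' own means lay between −0.0289 and 0.025 in knockout and between −0.0051 and 0.0236 in wild type.

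The median signal of an array was 40.9 to 48.8, highest on knockout array 3, which also had another solution lot in its array record. Arrays of a group correlated at 0.973 to 0.984 and arrays of different groups at 0.964 to 0.975. These are Pearson's r of log2 signals across the 22519 probe sets that passed the filter on mean signal, so dim probe sets are left out. All 11 proximal tubule markers on the array, such as the transporter genes Slc22a6 and Slc13a3, passed the filter on mean signal. Of these 11, 0 passed the test (median log2 change 0.00). The filter also kept all 13 genes of the loop of Henle, distal tubule and collecting duct. In wild type Umod, a gene of that list, had a mean of 3875, and the proximal Lrp2 4176. Passing the filter therefore cannot tell how pure the dissected tubules were. Among all probe sets, 411 passed higher and 441 lower in knockout.

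Some lists of markers of other cell types gave a different picture on the same arrays. The proximal tubule list and that of mural cells and fibroblasts, like the endothelial one, held no gene past the test. The lists are described here by counts and medians, with no test between them. For genes the share that passed was 2.78% of 18193 (1.36% higher and 1.41% lower), each represented by its probe set with the highest mean. Of 8 podocyte genes 2 rose and 0 fell, with a median log2 change of 0.38, against −0.06 for the 10 endothelial genes taken the same way. Synpo, which encodes the podocyte actin-binding protein synaptopodin, read 211, 193 and 195 in knockout and 126, 107 and 129 in wild type (log2 change 0.73, SE 0.11, limma adjusted p = 0.0101), a call that ended in 3 of 17 other settings. Nphs1, which encodes nephrin of the slit diaphragm, was 1.56-fold higher (adjusted p = 0.0482), a call that ended in 11 of 17 other settings. All 8 podocyte genes passed the filter on mean signal, and their summed signal was 1474 to 1544 in knockout and 1306 to 1348 in wild type.

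Of 12 leukocyte genes 3 rose and 0 fell, with a median of 0.36. They were Cd74 and H2-Aa, of antigen presentation by MHC class II, and Csf1r, the receptor that macrophages need. Csf1r read 885, 854 and 880 in knockout and 608, 569 and 572 in wild type (log2 change 0.58, SE 0.06, limma adjusted p = 0.0015). Of its further probe sets, 1419873_s_at also passed, at 0.69 (limma adjusted p = 0.0235). Probe set 1423593_a_at did not, at 0.34 (0.181). Of the 12, 11 passed the filter on mean signal. The summed leukocyte signal was 4396 to 4716 in knockout and 3021 to 3122 in wild type, without overlap. Cd74, H2-Aa and Csf1r are bright and weigh most in this sum. Their means were 1095, 1496 and 873 in knockout and 662, 928 and 583 in wild type. The other 9 genes did not pass, and the changes of all 12 ran from 0.03 to 0.73. Of 14 genes of mural cells and fibroblasts, the cells that sit on the outside of vessels, none passed, and the median was 0.10. The summed signal of the 14 was 1817 to 1867 in knockout and 1717 to 1782 in wild type, and 10 of them passed the filter on mean signal. Acta2, smooth muscle actin, had a change of 0.18 (95% interval 0.02 to 0.34, limma adjusted p = 0.348) and Rgs5, a marker of pericytes, −0.06 (95% interval −0.25 to 0.12). Of 13 genes of the loop of Henle, distal tubule and collecting duct 3 rose and 1 fell, with a median of 0.13. They were Calb1, Umod and Pvalb, which rose, and Aqp3, which fell, and these calls ended in 3, 7, 8 and 6 of 17 other settings. Whether RNA of these other cells bears on any endothelial value was not tested.

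**Figure D3:**
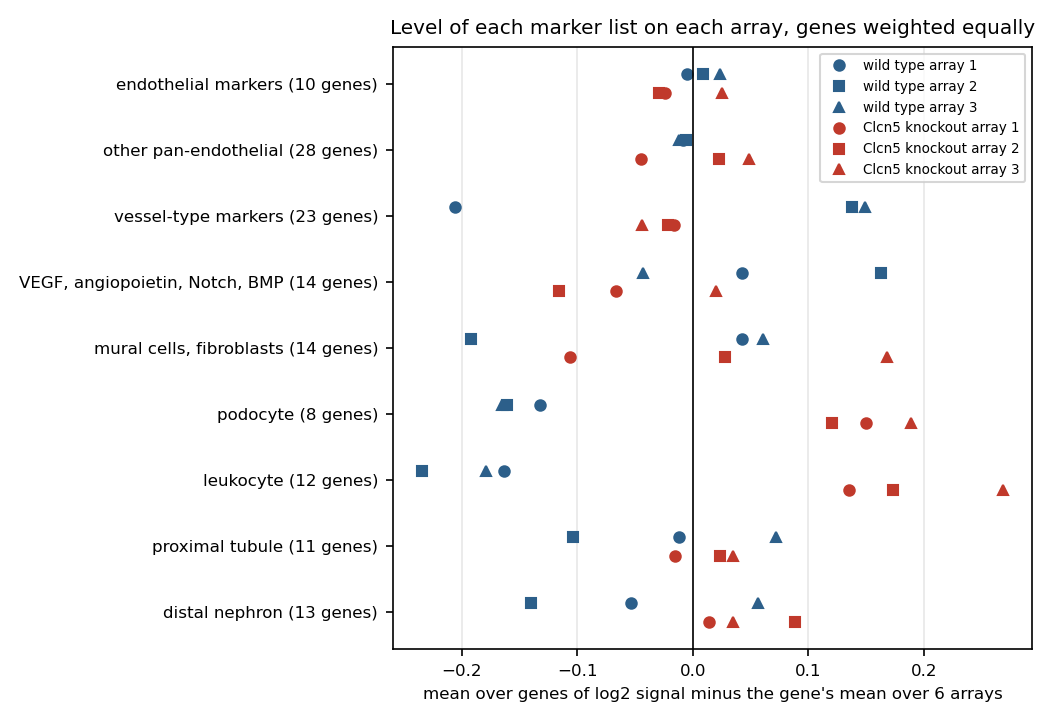
Level of each marker list on each array, as the mean over genes of the log2 signal minus the gene's own mean over the 6 arrays. The endothelial marker points of both groups lie between −0.03 and 0.03, while the knockout points of the podocyte and leukocyte lists lie to the right of all wild type points.

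Other endothelial genes gave a like median, with single genes that separated the groups in either direction. Of 28 further pan-endothelial genes, 0 rose and 1 fell, and their median log2 change was 0.02. The filter on mean signal kept 23 of the 28. The gene that fell was Sox18, a SOX factor of developing and angiogenic endothelium. It read 152, 132 and 140 in knockout and 216, 212 and 235 in wild type, so every knockout array was below every wild type array. It was lower by 1.57-fold, with a log2 change of −0.65 and an SE of 0.10 (limma adjusted p = 0.011), and the call ended without wild type array 1 or 3 and in 3 other settings (adjusted p up to 0.152). The groups did not overlap in 10 of the 28 genes, 4 higher and 6 lower, against 20.5% of all genes. Mmrn2, a matrix protein of endothelium, had 4 probe sets, all below 0 and of unlike size. Probe set 1437123_at passed with −0.57 (limma adjusted p = 0.0426), while the representative 1420276_x_at, also at −0.57, did not (0.21), nor did 1456768_a_at at −0.26 (0.648) and 1439518_at at −0.12 (0.807). The call of 1437123_at ended in 10 of 16 other settings. The ETS factor genes Erg and Fli1, named for the letters shown above, had log2 changes of −0.16 (95% interval −0.67 to 0.36) and 0.18 (95% interval −0.33 to 0.69), intervals that leave room for changes past 1.5-fold. Erg was dim, at 34.7 to 40.7 in knockout and 35.7 to 47.1 in wild type, and did not pass the filter on mean signal.

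Markers of particular vessel types moved singly as well. Of 23 such genes 1 rose and 1 fell, with a median of −0.09. The filter on mean signal kept only 14 of the 23, so the median rests in part on dim genes. Igfbp3, which encodes a binding protein for insulin-like growth factors and is found in several endothelial and stromal cells, read 442, 479 and 413 in knockout and 630, 663 and 647 in wild type. The difference was 1.46-fold, with a log2 change of −0.54 and an SE of 0.07 (limma adjusted p = 0.0063), with a second probe set at −0.49 (adjusted p = 0.00541). Sema3g, a secreted semaphorin listed here for arterial endothelium, went the other way, at 457, 406 and 412 in knockout and 276, 250 and 300 in wild type. Which cells of these samples held the Sema3g transcript was not tested. It was 1.55-fold higher (log2 change 0.63, SE 0.09, limma adjusted p = 0.00856). The groups did not overlap for either gene, and both calls ended in 3 of 17 other settings.

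Among 14 ligands, receptors and co-receptors of VEGF, angiopoietin, Notch and BMP signalling, 0 rose and 1 fell, with a median of −0.02. The filter on mean signal kept 12 of the 14. Angpt1 encodes angiopoietin-1, the ligand that activates Tie2, the product of Tek. On probe set 1439066_at it read 103, 99.1 and 113 in knockout and 207, 186 and 173 in wild type. This was a 1.79-fold lower level with no overlap (log2 change −0.84, SE 0.11, limma adjusted p = 0.00557). On each station alone the change of this probe set was −0.90 and −0.71, and the call ended in 2 of 17 other settings. Another Angpt1 probe set, 1421441_at, was lower by an unlike size, −2.29 (95% interval −3.52 to −1.06). It was too dim for the filter and did not pass the test (limma adjusted p = 0.0888). Its receptor gene Tek was at −0.09, as given above. Angpt1 is made by cells around vessels more than by endothelium itself, and the files do not say which cells of these samples held the transcript. Vegfa, the main VEGF ligand gene, had a change of 0.12 (95% interval −0.07 to 0.30) and Nrp1, a VEGF co-receptor gene, −0.12 (95% interval −0.31 to 0.06).

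**Figure D4:**
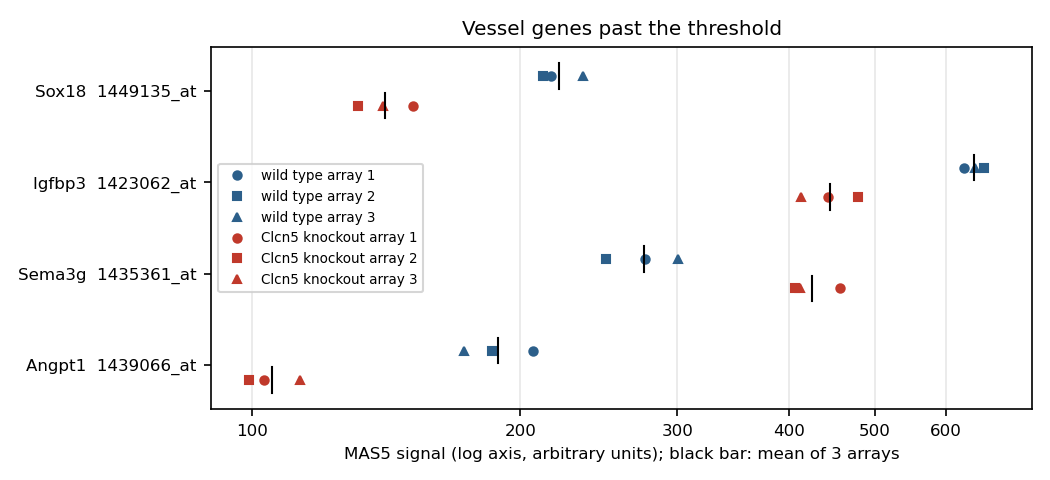
MAS5 signal on each array (log axis, arbitrary units) of the 4 genes of the wider vessel lists whose representative probe set passed the test, with the mean of 3 arrays as a black bar. Sox18, Igfbp3 and Angpt1 are lower and Sema3g is higher on every knockout array.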

How the data were processed

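The deposited table gives a linear signal intensity for each probe set. The submitters' processing notes name MAS5 and GCOS 1.4. Each array showed a trimmed mean of 150, with 2% trimmed at each end. Per the labels, a single amplification of total RNA started from oligo dT. The table holds no detection calls. Of 45101 probe sets 64 controls were left out, which leaves 45037. GEO's platform annotation pairs 34945 of these with 1 symbol, 932 with several and 9160 with none. Array records served for the fluidics station, solution lot and pool size.

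All signals were above 0, so log2 was taken with no pseudocount, and no filter was set. The groups were compared in limma 3.58.1 (R 4.3.3) with lmFit and a trended eBayes. The fit had 4 residual degrees of freedom, tests were two-sided, and p-values were adjusted by Benjamini-Hochberg over all 45037 probe sets, with 0.05 as the threshold. Intervals are moderated 95% intervals. Means and SDs are of linear signals. Precision is limited by the 6 arrays, with a median SE of 0.12 among the members. Steps were tested on simulated data. Python 3.11.15 with pandas 2.3.3 made the tables and matplotlib 3.10.9 the plots. The filter used as an alternative keeps the 22519 probe sets whose mean log2 signal reaches the median, a signal of 41.9.

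The members and the 9 other gene lists were chosen with earlier results of these data known. Of 149 list entries, 138 are on the array. Named from the other lists were up to 4 genes past the threshold with the smallest p, or 1 or 2 with the narrowest intervals. Mmrn2 was named because a probe set other than its representative passed. Erg, Fli1, Vegfa, Nrp1 and the red blood cell, adhesion receptor and further podocyte genes of the closing section were named after their values were seen. The replicate numbers of the titles did not pair the arrays. Deviations from the group means of same-numbered arrays had correlations of 0.008, 0.039 and −0.042 across the probe sets that passed the filter.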

Additional observations from a re-analysis of the deposited data

How the results depend on the processing

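No endothelial probe set passed the threshold in any of the 17 other fits, and the smallest adjusted p among them was 0.227, for Egfl7 1421335_a_at without knockout array 1 (log2 change 0.75, limma). The absence of unadjusted p-values under 0.05 did not hold in every fit. Without knockout array 1, 4 of the 19 were under 0.05 by limma, where 5683 of all 45037 probe sets were. Within station 1 it was 1 of the 19, where 4633 of all were. Of 332 member values under other settings, 318 moved by less than the spread between replicates and 14 by more, 12 of these on station 2, where 12 of the 19 probe sets moved. The filters, the fit without an intensity trend and the blocks by replicate number or station leave a log2 change as it is. Their values were thus among the 318 in advance. Signs were not steady, as the changes are near 0: 12 of the 19 probe sets changed sign in at least 1 setting. The median log2 change of the members was −0.0926 within station 1, 0.0798 on station 2 (1 array a group, no test), and −0.0709 to 0.0248 without 1 array, the highest without knockout array 2. The ratio of summed signals was 0.969 without Emcn and Plvap. Over the whole table, 390 probe sets passed with median centring, 78 without an intensity trend, 307 within station 1, and 442 to 683 without 1 array, against 852. Among the counts without 1 array, those over 1.5 times below it were 548 without knockout array 2, and 442, 501 and 496 without wild type array 1, 2 or 3. The replicate number as a block gave 643 probe sets, 0 members and a median of −0.05. Without the intensity trend Sox18, Igfbp3, Sema3g, Angpt1, Synpo, Nphs1, Cd74, H2-Aa, Csf1r and Mmrn2 did not pass. Calb1, Aqp3, Umod, Pvalb and Slc4a1 did not pass in that setting either. No direction of any of these genes reversed in any setting. The cause was not tested. Dim probe sets such as Cdh5 1422047_at could not be told from background, as the table has no detection calls.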

Other observations

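Red blood cell genes offer another view of blood left in the vessels, although only 5 of the 10 listed are on the array under 1 symbol and 2 of these passed the filter on mean signal. Of the 5, 1 rose and 0 fell, with a median log2 change of 0.32. Hbb-b2, a beta-globin gene, read 73.3, 73.1 and 82.0 in knockout and 59.0, 79.4 and 47.9 in wild type, with overlapping groups (log2 change 0.32, 95% interval −0.14 to 0.79, limma adjusted p = 0.607). Hba-a1, an alpha-globin gene, had a change of −0.58 (95% interval −1.67 to 0.51). Alas2, the erythroid enzyme of haem synthesis, was dim, at 6.12, 9.38 and 32.7 in knockout and 2.46, 3.99 and 6.06 in wild type, and the groups did not overlap (log2 change 1.66, 95% interval 0.01 to 3.31, limma adjusted p = 0.419). Hemgn, an erythroid nuclear protein gene, was dim as well and had a change of −0.82 (95% interval −2.50 to 0.85). Slc4a1, which red blood cells and the acid-secreting intercalated cells of the collecting duct both express, was 1.49-fold higher in knockout (limma adjusted p = 0.0146), a call that ended in 6 of 17 other settings.

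A pair of adhesion receptor genes of endothelium, Adgrf5 and Adgrl4, chosen after their values were seen, separated the groups in opposite directions without passing the test. Adgrf5 read 511, 488 and 508 in knockout and 389, 410 and 443 in wild type (log2 change 0.28, 95% interval 0.11 to 0.45, limma adjusted p = 0.128). Adgrl4 read 231, 238 and 251 in knockout and 294, 305 and 289 in wild type (log2 change −0.30, 95% interval −0.48 to −0.12, limma adjusted p = 0.125). Among podocyte genes, Tcf21, which stromal cells also express, was at −0.30 (limma adjusted p = 0.212) while Cdkn1c was at 0.43 (0.158).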
